A study of Mus musculus with 18 samples.

Results

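Whether the transcriptional response to the condition labelled TW depended on the stiffness of the matrix was measured in 12 of the 18 libraries of the series, 3 in each of 4 groups. Without TW, cells were kept on a matrix labelled soft (Soft) or stiff (Stiff), and the same pair of matrices was used with TW (Soft-TW, Stiff-TW). The quantity reported for each gene is the interaction, the change with TW on the stiff matrix minus the change with TW on the soft matrix, on the log2 scale. It is also the gap between the matrices with TW (Stiff-TW minus Soft-TW) less the gap without it (Stiff minus Soft). A positive interaction therefore says that TW moved a gene higher on the stiff matrix than on the soft one, relative to each matrix alone, and a negative interaction the opposite. The other 6 libraries, of both matrices with an addition labelled mito, entered only the shared estimate of spread and the last comparison. The labels do not spell out TW or mito, give no stiffness, and do not say whether the 3 libraries of a group came from separate cultures, so that each p-value reflects just the spread among these libraries, possibly a technical one.

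All libraries were labelled RAW264.7, a mouse line of macrophages, and the data went against that label. The table held 21 markers of macrophages and myeloid cells, of which 17 averaged below 1 TPM (a level scaled for gene length and library depth) over the 12 libraries, and 2, Cd14 and Lyz2, averaged 10 TPM or more. Csf1r, the receptor of macrophage colony stimulating factor, had group means from 0.0533 to 0.83 TPM, Adgre1, which encodes the antigen F4/80, from 0 to 0.0833, and Ptprc, which encodes the leukocyte antigen CD45, from 0.0267 to 0.183. None of the 21 was at 0 in all libraries. The summed level of the 21 was 42.5 to 43.4 TPM in Soft, 86.6 to 88.8 in Soft-TW, 34.2 to 39.2 in Stiff and 57.5 to 60.4 in Stiff-TW, and its part in the interactions below was not tested. In bulk RNA, fewer cells of a type and less RNA per cell cannot be told apart. The cells are called by their group here. Library totals ran from 16054637 to 16509621 estimated counts, with 11785 to 11909 genes at 10 counts or more in each library.

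Cells sense the stiffness of what they adhere to through integrins, collagen receptors and the contractile actin skeleton, and pass it on to small GTPases, MAP kinases and transcriptional coactivators such as YAP and TAZ. The same signals meet metabolic programmes. The integrated stress response reduces general translation and, through Atf4, raises genes of amino acid synthesis, amino acid transport and tRNA charging, while SREBP factors set the genes of cholesterol and fatty acid synthesis by the sterol content of membranes.

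At an adjusted p under 0.05 (edgeR quasi-likelihood test, Benjamini-Hochberg over all genes tested), 4421 of 12245 genes (36.1%) had an interaction, 2004 of them positive (16.4% of genes tested) and 2417 negative (19.7%). Most were small. The median of the positive calls was 0.30 on the log2 scale and that of the negative calls -0.27, while the median over all genes was -0.0065. At 1.5-fold or more there were 284 positive genes (2.32%) and 271 negative genes (2.21%), and at 2-fold or more 86 (0.702%) and 100 (0.817%). The sign was the same for all 81 choices of 1 library per group in 3563 of the calls (80.6%), where 31.5% of all genes tested met that condition. The calls and that condition rest on the same 12 libraries, so these shares only describe the calls. The balance of signs moved with the measure used: positive genes made up 45.3% of the calls from counts and 62.2% of those from limma on log2(TPM + 1). A test for changes above 0.32 on the log2 scale called 550 genes, 254 positive and 296 negative.

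The difference between the matrices was of about the same overall size with and without TW. Over all genes, the median absolute gap between the matrices was 0.165 on the log2 scale without TW and 0.166 with it. Across the 10169 genes with a mean of 5 CPM or more (counts scaled to library size), the standard deviation of the gap was 0.278 without TW and 0.273 with it. The gap was narrower with TW in 49.6% of all genes tested. Among genes of at least 1.5-fold it was narrower in 186 of 271 with a negative interaction (68.6%) and in 155 of 284 with a positive one (54.6%).

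**Figure D1:**
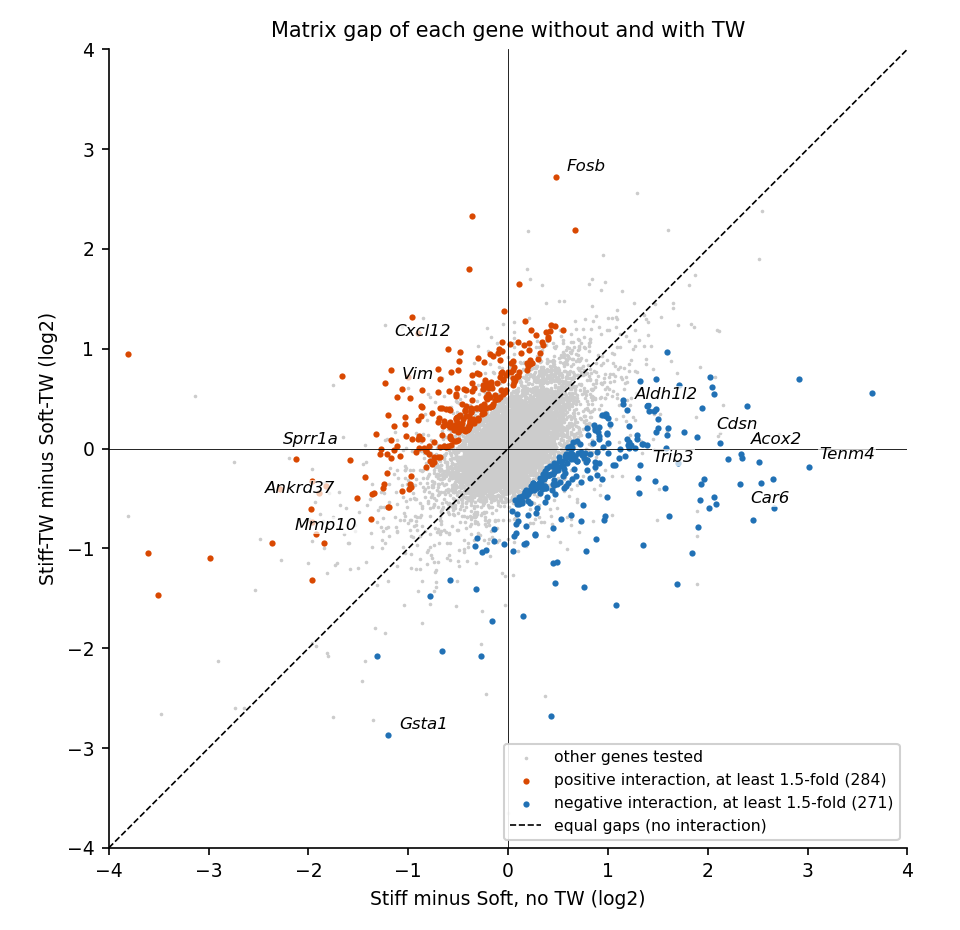
Each point is a gene, placed by the log2 difference Stiff minus Soft without TW (horizontal) and Stiff-TW minus Soft-TW (vertical), and the vertical distance to the dashed diagonal is the interaction. Orange marks the 284 positive and blue the 271 negative called interactions of at least 1.5-fold, grey all other genes, and 10 of 12245 genes lie outside the axes; the blue points lie mostly to the right of 0 and near the horizontal axis, and the orange points mostly to the left of 0.

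The large interactions mostly came from the stiff matrix. For each gene, the group whose mean log2 level lay farthest from the median of the other 3 was taken as the group standing apart, a description chosen after the values were seen. The sign of the interaction limits which groups can be apart and in which direction. Among the 284 positive genes of at least 1.5-fold, Stiff was apart and low in 139 (48.9%), Stiff-TW was apart and high in 113 (39.8%), and each of Soft (high) and Soft-TW (low) was apart in 16. Among the 271 negative genes, Stiff was apart and high in 148 (54.6%), Stiff-TW was apart and low in 70 (25.8%), Soft was apart and low in 38 (14%) and Soft-TW was apart and high in 15 (5.54%). A group on the stiff matrix was thus the one apart in 88.7% of the positive and 80.4% of the negative genes, beside 69.9% of all genes tested. These large interactions lay in genes of lower level, with medians of 7.38 CPM (positive) and 9.08 CPM (negative) beside 33 CPM over all genes tested.

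Fosb, a subunit of the AP-1 transcription factor (gene 14282, chromosome 7, 19302696 to 19310118), had the largest positive interaction among genes of at least 5 CPM (positions are from RefSeq on GRCm38.p6, the assembly also called mm10). Its levels were 5, 4.27 and 4.44 TPM in Soft, 8.85, 8.05 and 8.26 in Soft-TW, 5.54, 5.44 and 6.74 in Stiff, and 54.8, 54.2 and 53.3 in Stiff-TW. The Stiff-TW libraries stood far above the other 9, which lay below 9 TPM, and the interaction was 2.24 ± 0.117 (log2, ± approximate standard error, adjusted p = 3.31e-24). Cxcl12, a chemokine of stromal cells (gene 20315, chromosome 6, 117168535 to 117181368), had the same shape at a higher level. It was measured at 78.9, 81.5 and 80 TPM in Soft, 84.6, 85.8 and 91 in Soft-TW, 65.3, 68.7 and 69.5 in Stiff, and 174, 171 and 165 in Stiff-TW, an interaction of 1.12 ± 0.0453 (adjusted p = 2.34e-42). Gas1, a membrane protein that arrests growth and binds hedgehog ligands, had group means of 7.88, 13.5, 6.95 and 26.5 TPM in Soft, Soft-TW, Stiff and Stiff-TW (interaction 1.09 ± 0.0992). The sulfatase gene Arsj (1.07 ± 0.129) and the presynaptic gene Unc13c (1.10 ± 0.177) were likewise highest in the 3 Stiff-TW libraries, with no overlap with any other group.

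In a second shape, Stiff was the lowest group and TW brought the matrices closer together. Sprr1a, a protein of the cornified envelope (gene 20753, chromosome 3, 92483954 to 92485881), was at 74.9, 74.1 and 79.1 TPM in Soft, 114, 113 and 110 in Soft-TW, 17.4, 18.1 and 16 in Stiff, and 99.1, 105 and 102 in Stiff-TW. The gap between the matrices went from -2.13 to -0.10, an interaction of 2.03 ± 0.106 (adjusted p = 1.9e-33). Sox2, a transcription factor of stem and progenitor cells (gene 20674, chromosome 3, 34649995 to 34652461), was measured at 15.4, 13.7 and 14.6 TPM in Soft, 23.4, 23.1 and 23.4 in Soft-TW, 6.37, 5.35 and 6.02 in Stiff, and 21.5, 22 and 22.9 in Stiff-TW. Its TW groups lay next to each other while Stiff lay below Soft in every library, giving 1.16 ± 0.102 (adjusted p = 3.96e-18). The serine protease gene Tmprss11b (1.23 ± 0.116) had mean levels of 10.4, 38.6, 4.03 and 36.5 TPM in Soft, Soft-TW, Stiff and Stiff-TW. Stiff was its lowest group, but Soft was also well below both TW groups. Mmp10, which encodes stromelysin 2, kept a gap in the same direction with TW, at 48.6 against 11.8 TPM without TW and 41.8 against 27 with it (Soft against Stiff, interaction 1.36 ± 0.0931). Among the other genes of largest positive interaction, Oas3, a sensor of double-stranded RNA, had 1.38 ± 0.157, Ankrd37, a target of hypoxia-inducible factors, 1.15 ± 0.18, Ccno, a cyclin of cells with many cilia, 1.30 ± 0.171, and the cadherin gene Cdh17 1.44 ± 0.323. Cdh17 lay below 6 TPM in all libraries, and its call was lost with limma on log2(TPM + 1), which gave 0.28. In TPM, Ankrd37 and Cdh17 rose by more on the soft matrix, unlike on the log2 scale. With TW the mean of Ankrd37 went from 11.3 to 128 on the soft matrix and from 3.83 to 99.6 on the stiff one. That of Cdh17 went from 0.993 to 5.89 and from 0.24 to 4.23. The histone gene H2ac18 (1.07 ± 0.116) and Ppp1ccb (1.12 ± 0.354, adjusted p = 0.0258) have near-identical relatives between which reads can be split, and the call of Ppp1ccb was lost when any of 7 single libraries was left out.

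Vim, the intermediate filament gene of mesenchymal cells and among the most abundant mRNAs here, crossed over (gene 22352, chromosome 2, 13574311 to 13582826). It was at 2208, 2133 and 2156 TPM in Soft, 3013, 2939 and 2944 in Soft-TW, 1420, 1413 and 1444 in Stiff, and 4197, 4229 and 4224 in Stiff-TW. Stiff was the lowest group and Stiff-TW the highest, none of the 4 groups overlapped, and the gap went from -0.53 to 0.53 (interaction 1.06 ± 0.0267, adjusted p = 8.1e-53).

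Tenm4, one of the teneurins, large adhesion proteins of the plasma membrane (gene 23966, chromosome 7, 96171244 to 96911093), had the largest negative interaction among genes of at least 5 CPM. Levels were 1.52, 1.19 and 1.51 TPM in Soft, 2.03, 1.78 and 1.98 in Soft-TW, 10.8, 10.5 and 10.8 in Stiff, and 1.77, 1.5 and 1.69 in Stiff-TW. The 3 Stiff libraries were above all others, and with TW the stiff libraries lay just below the soft ones, so that the gap went from 3.01 to -0.19 (interaction -3.20 ± 0.101, adjusted p = 5.52e-52). Cdsn, which encodes corneodesmosin (gene 386463, chromosome 17, 35543101 to 35557180), was measured at 25.2, 24.6 and 23.7 TPM in Soft, 40.7, 38.1 and 41.6 in Soft-TW, 103, 96.3 and 103 in Stiff, and 41.5, 40.4 and 41.2 in Stiff-TW. The Soft-TW and Stiff-TW libraries overlapped, after a gap of 2.12 without TW (interaction -2.07 ± 0.0585, adjusted p = 5.11e-56). Car6, a secreted carbonic anhydrase (-2.68 ± 0.14), and Acox2, a peroxisomal oxidase of branched chains and bile acid intermediates (-2.39 ± 0.238), had the same shape, with Stiff means of 36 and 10.6 TPM and no other group above 16.4 TPM in any library. Rgs2, which speeds the turnover of G proteins (-1.30 ± 0.0965), the semaphorin gene Sema4d (-1.31 ± 0.148) and Acot2, a mitochondrial thioesterase of long acyl-CoA (-1.23 ± 0.121), were also highest in the Stiff libraries without overlap.

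Other negative genes owed the interaction to another group. Lyz2, lysozyme and 1 of the 2 abundant myeloid markers (gene 17105, chromosome 10, 117277541 to 117282272), was at 5.09, 5.07 and 6.6 TPM in Soft, 30.8, 29 and 30.8 in Soft-TW, 6.98, 6.25 and 8.93 in Stiff, and 12, 12.1 and 16.1 in Stiff-TW. Soft-TW was the highest group, Stiff-TW lay above both groups without TW, and the interaction was -1.59 ± 0.208 (adjusted p = 2.74e-10). Of the 9 myeloid markers that passed the count filter, 2 had a negative interaction, Lyz2 and Csf1r, and 1 a positive one, Mrc1. Csf1r and Mrc1 lay near the floor, at no more than 1.1 and 0.37 TPM in any library. Mrc1 was at 0 TPM in Stiff. Pgf, a placental growth factor of the VEGF family, had means of 0.92, 29, 1.28 and 17.1 TPM in Soft, Soft-TW, Stiff and Stiff-TW, so that levels without TW rested on as few as 9 counts (-1.46 ± 0.32). Areg, a ligand of the EGF receptor (-1.24 ± 0.0697), had means of 34.5, 161, 63.4 and 128 TPM in the same order, and Prss12, a serine protease of neurons (-1.25 ± 0.171), had 2.07, 8.95, 4.4 and 8.38 TPM. Gsta1, a glutathione transferase, was lowest in Stiff-TW, at 2.85, 3.72 and 4.5 TPM beside 29.4, 29.6 and 28.2 in Stiff, 32.1, 26.3 and 24.7 in Soft-TW and 76, 66 and 62.9 in Soft (-1.67 ± 0.203). In TPM, the fall of Gsta1 with TW was larger on the soft matrix, unlike on the log2 scale. Close relatives of Gsta1 make its counts less certain.

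**Figure D2:**
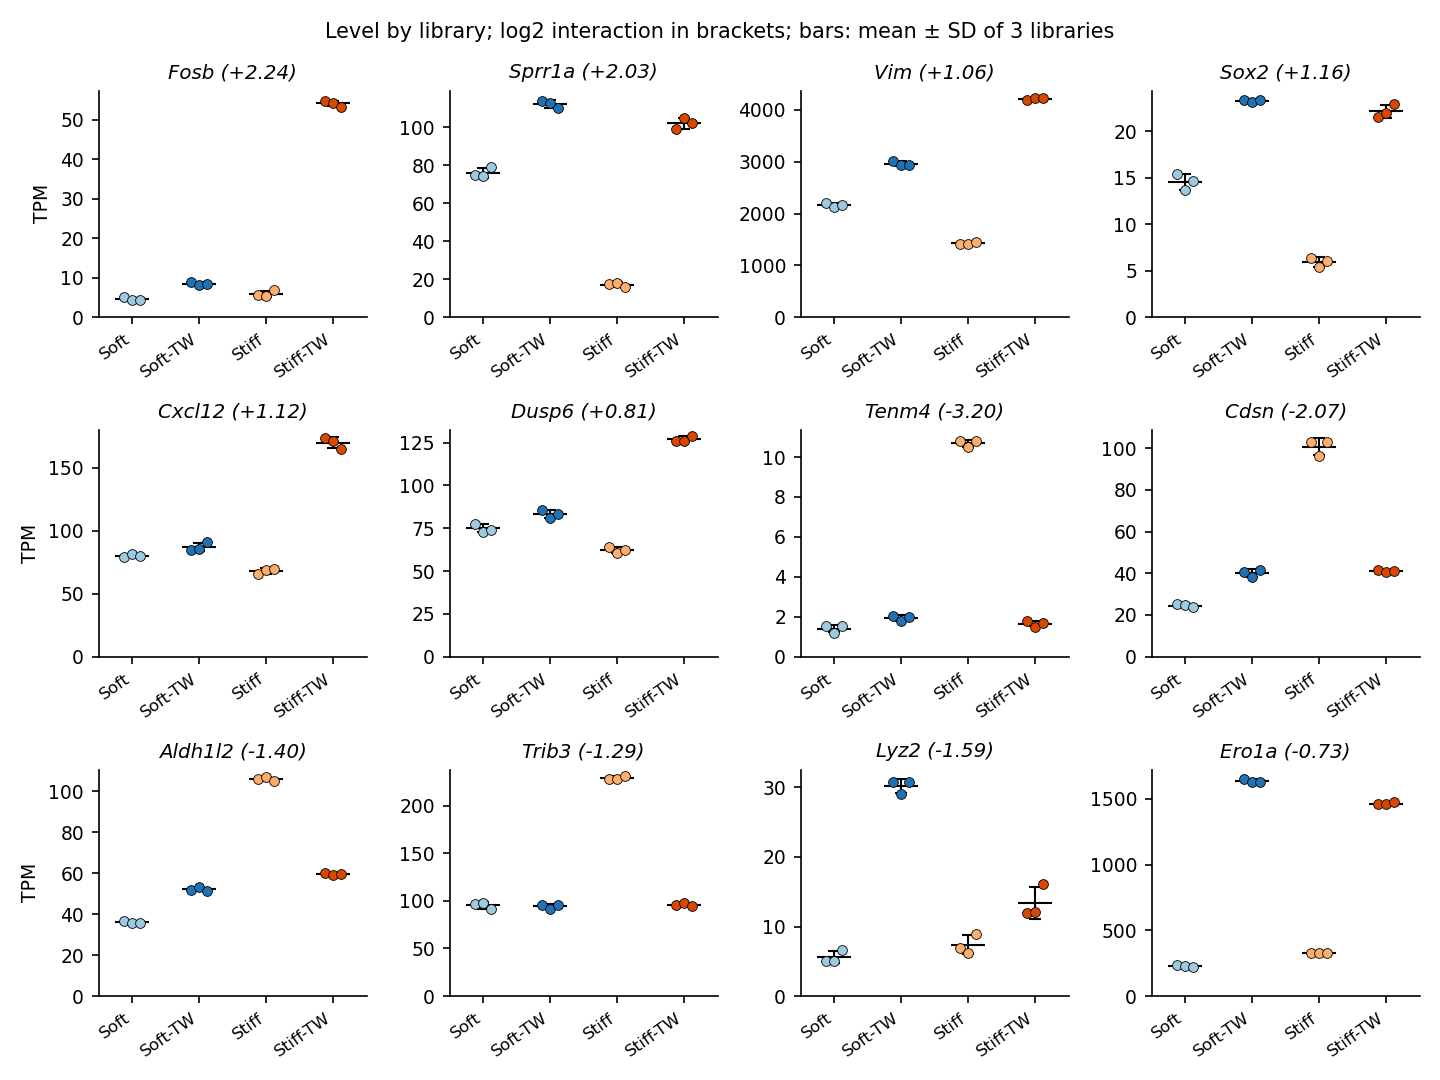
Levels of 12 genes in TPM (vertical, linear from 0) in each library of the 4 groups, with points for the 3 libraries, a bar for the mean and whiskers for the SD; the log2 interaction stands in brackets. Fosb, Cxcl12, Dusp6 and Vim were highest in Stiff-TW, Tenm4, Cdsn, Aldh1l2 and Trib3 were highest in Stiff, and Lyz2 was highest in Soft-TW.

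Genes of the integrated stress response had the lowest median interaction of the pathway lists. Of 36 tested, 30 were negative and 0 positive (83.3% negative, beside 19.7% of all genes), with a median interaction of -0.44 beside -0.0065 for all genes. The median gap between the matrices went from 0.63 without TW to 0.18 with it, and Stiff was the group apart, high, in 28 of the 36 (77.8%, beside 15.7% of all genes). The clearest case was Trib3, a pseudokinase induced by Atf4 and Ddit3 (gene 228775, chromosome 2, 152337425 to 152344060). It was at 96.3, 98.2 and 91.6 TPM in Soft, 96, 91.3 and 95.4 in Soft-TW, 228, 228 and 231 in Stiff, and 96.1, 97.8 and 94.2 in Stiff-TW. The Stiff libraries stood above all others, and the interaction was -1.29 ± 0.0421 (adjusted p = 1.32e-50). Aldh1l2, a mitochondrial enzyme of folate metabolism, was at 36.5, 35.7 and 35.6 TPM in Soft, 51.7, 53.1 and 51.4 in Soft-TW, 106, 107 and 105 in Stiff, and 60.1, 59.2 and 59.8 in Stiff-TW (-1.40 ± 0.0346, adjusted p = 1.67e-61). The groups did not overlap, and the gap narrowed from 1.61 to 0.20.

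The size of the interaction varied among the members. Slc7a11, the cystine importer (gene 26570, chromosome 3, 50364936 to 50499087), was measured at 106, 99.4 and 98.8 TPM in Soft, 59.5, 60.5 and 59.5 in Soft-TW, 112, 110 and 107 in Stiff, and 38.6, 37.7 and 36 in Stiff-TW, so that the group apart was Stiff-TW, low (-0.87 ± 0.0322, adjusted p = 1.78e-45). Ppp1r15a, the phosphatase subunit that ends the response by restoring translation, had -0.96 ± 0.0465, with means of 77.4, 74.3, 117 and 60.5 TPM in Soft, Soft-TW, Stiff and Stiff-TW. The transcription factors Atf5 (-0.95) and Atf3 (-0.92) and the cysteine-forming enzyme gene Cth (-1.07) were as strongly negative. Atf4 itself, which is controlled largely through translation, had a smaller interaction, -0.20 ± 0.0289, and Ddit3, which encodes CHOP, had -0.12 ± 0.0538 and missed the threshold (adjusted p = 0.0836). The asparagine synthetase gene Asns (-0.42), the serine synthesis gene Phgdh (-0.31) and the amino acid transporter gene Slc7a5 (-0.45) were negative, while Psat1 (-0.073, adjusted p = 0.0662) and Chac1 (-0.077, adjusted p = 0.262) were not called. Without Soft replicate 2, Ddit3 was called at -0.16, and without Soft replicate 1 or 2 Psat1 was called at -0.082 and -0.091.

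The cytosolic aminoacyl-tRNA synthetases, which charge tRNAs and include Atf4 targets, were negative in 14 of 20 genes and positive in 1 (median -0.33). Wars had -0.82 ± 0.045, with means of 65.1, 52.2, 114 and 54.8 TPM in Soft, Soft-TW, Stiff and Stiff-TW, and Lars -0.63, Nars -0.58 and Eprs -0.50. Among mitochondrial chaperones and proteases, 12 of 17 were negative and 1, Spg7 (0.19), positive (median -0.32). The matrix protease gene Lonp1 was at 128, 129 and 126 TPM in Soft, 137, 132 and 137 in Soft-TW, 225, 219 and 227 in Stiff, and 130, 129 and 134 in Stiff-TW. As with Trib3, Stiff alone stood apart (-0.92 ± 0.0351, adjusted p = 1.42e-44). Hspd1, which encodes the chaperonin HSP60, had -0.58 ± 0.0288, and Hspa9, which encodes mortalin, -0.52 ± 0.0264.

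Promoters of this group are shown because its members moved together. The windows run from 250 bases before to 50 after the annotated start, 300 bases in all, from RefSeq on GRCm38.p6, and 9751 of the 12245 genes had 12459 windows. The letters searched, on both strands, were TGATGNAA, the C/EBP-ATF response element (CARE) that Atf4 dimers are known to bind. It was found in 10 of 34 windows of the integrated stress response genes (29.4%), beside 288 of all 12459 (2.31%). The list was written from genes known to belong to this response, so that share does not bear on the interaction. Among genes of at least 1.5-fold, CARE was in 4.41% of windows of negative genes and 3.04% of those of positive genes. In the windows below, printed 5′ to 3′ on the strand of the gene, capitals mark the match, which begins 14 bases after the start in Trib3 (minus strand, chr2:152344011-152344310) and 66 and 47 bases before it in Slc7a11 (minus strand, chr3:50443564-50443863). A match is a description of the letters and not a measured site.
Trib3: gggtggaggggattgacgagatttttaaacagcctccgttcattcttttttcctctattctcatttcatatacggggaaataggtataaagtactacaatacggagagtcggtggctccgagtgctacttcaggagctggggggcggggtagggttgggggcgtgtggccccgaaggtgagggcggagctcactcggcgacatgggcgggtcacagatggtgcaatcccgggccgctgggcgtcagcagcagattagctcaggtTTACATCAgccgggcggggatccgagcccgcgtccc
Slc7a11: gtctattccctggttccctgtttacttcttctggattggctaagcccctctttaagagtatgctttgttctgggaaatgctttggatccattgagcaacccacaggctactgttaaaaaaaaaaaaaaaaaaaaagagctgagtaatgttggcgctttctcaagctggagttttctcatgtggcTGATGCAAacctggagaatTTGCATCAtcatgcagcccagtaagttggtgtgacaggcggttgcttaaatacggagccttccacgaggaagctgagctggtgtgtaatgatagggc

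Genes of ribosome biogenesis, which make and process ribosomal RNA in the nucleolus, were negative in 29 of 31 and positive in none (93.5% negative, median -0.41). Here Stiff-TW was apart and low in 18 and Stiff was apart and high in 10, and the median gap changed sign, from 0.17 to -0.28. Nop56, a core protein of small nucleolar ribonucleoproteins (gene 67134, chromosome 2, 130274367 to 130279313), was at 260, 256 and 257 TPM in Soft, 152, 144 and 149 in Soft-TW, 315, 316 and 327 in Stiff, and 110, 107 and 107 in Stiff-TW. Stiff was the highest group and Stiff-TW the lowest, with no overlap among the 4 (-0.77 ± 0.0362, adjusted p = 5e-37). Rrp12 (-0.96), Mybbp1a (-0.65 ± 0.0328), the nucleolin gene Ncl (-0.58 ± 0.0263) and Nop58 (-0.56 ± 0.0441) were of like size, and Myc, which drives many of these genes, had -0.38. The genes of proteins of the finished ribosome shared the negative sign, with medians closer to 0 than that of the assembly genes. Of 78 cytosolic ribosomal protein genes, 25 were negative (32.1%, beside 19.7% of all genes) and 0 positive, with a median of -0.056. Of 78 mitochondrial ones, 29 were negative (37.2%) and 0 positive, with a median of -0.13. With limma on log2(TPM + 1), 42 of the cytosolic genes were negative and 3 positive. The E-box CACGTG, known as the Myc site, was searched on both strands and found in 6 of 32 ribosome biogenesis windows (18.8%). It was in 9.7% of all windows, 13.9% of those of negative genes and 8.19% of those of positive genes. Among genes of at least 1.5-fold the E-box was in 10.7% of windows of negative genes and 5.7% of those of positive genes. The window of Mybbp1a (plus strand, chr11:72441077-72441376) is shown as an example, its E-box in capitals beginning 40 bases after the start.
Mybbp1a: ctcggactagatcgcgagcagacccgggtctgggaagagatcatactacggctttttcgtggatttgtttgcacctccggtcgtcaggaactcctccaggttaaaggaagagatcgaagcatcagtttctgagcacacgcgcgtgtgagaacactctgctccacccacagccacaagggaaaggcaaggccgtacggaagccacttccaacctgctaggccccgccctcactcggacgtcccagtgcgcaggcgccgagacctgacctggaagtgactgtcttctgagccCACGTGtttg

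Cholesterol synthesis was the most uniform positive group. All 24 tested genes of the pathway had a positive interaction (100%, beside 16.4% of all genes), from 0.22 in Sc5d to 0.90 in Acat2, with a median of 0.56. The median gap between the matrices was -0.30 without TW and 0.24 with it, and Stiff was apart and low in 13 of the genes, Stiff-TW apart and high in 7. Acat2, which condenses acetyl-CoA, was at 159, 148 and 154 TPM in Soft, 116, 118 and 116 in Soft-TW, 105, 104 and 109 in Stiff, and 158, 156 and 156 in Stiff-TW (0.90 ± 0.0399, adjusted p = 3.92e-39). The order of the matrices was reversed by TW, with Soft above Stiff in every library without TW and below it in every library with TW. The middle of the pathway behaved alike, with Fdps at 0.74 ± 0.035, Idi1 at 0.72 ± 0.0343 and Nsdhl at 0.82. Its regulators were positive too, with Insig1, which retains SREBP in the endoplasmic reticulum, at 0.59 ± 0.0333 and Srebf2 at 0.24 ± 0.0304. Fatty acid synthesis genes under SREBP1 were positive in 12 of 14 and negative in 2, Gpam (-0.34) and Me1 (-0.11), with a median of 0.29. The synthase gene Fasn had 0.67 ± 0.031, the elongase gene Elovl6 0.67 ± 0.0429, the desaturase genes Scd2 and Scd1 0.50 ± 0.0252 and 0.47 ± 0.0267, and Srebf1 0.43 ± 0.0458.

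The letters of 2 motifs of sterol-regulated promoters were searched on both strands after the values were seen. The sterol regulatory element TCACNCCAC was found in 1 of 20 windows of the cholesterol genes (5%, beside 1.08% of all windows), that of Hmgcs1 (plus strand, chr13:119690101-119690400), where it begins 137 bases before the start. The CCAAT box, CCAAT, of the factor NF-Y that acts beside SREBP, was found in 16 of the 20 (80%, beside 38.5% of all windows). Nsdhl (plus strand, chrX:72918271-72918570) held 4, the first beginning 109 bases before the start. This list too was written from known pathway genes, so its shares do not bear on the interaction. Among genes of at least 1.5-fold, CCAAT was in 44.1% of windows of positive genes and 38.6% of those of negative genes. Capitals mark the sterol element in Hmgcs1 and the CCAAT boxes, on either strand, in Nsdhl.
Hmgcs1: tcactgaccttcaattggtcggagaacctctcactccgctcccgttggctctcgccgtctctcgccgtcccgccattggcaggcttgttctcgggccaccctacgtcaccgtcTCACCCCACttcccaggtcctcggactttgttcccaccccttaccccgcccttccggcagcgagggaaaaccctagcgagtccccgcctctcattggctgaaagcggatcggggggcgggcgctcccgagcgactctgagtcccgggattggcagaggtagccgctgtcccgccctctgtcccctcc
Nsdhl: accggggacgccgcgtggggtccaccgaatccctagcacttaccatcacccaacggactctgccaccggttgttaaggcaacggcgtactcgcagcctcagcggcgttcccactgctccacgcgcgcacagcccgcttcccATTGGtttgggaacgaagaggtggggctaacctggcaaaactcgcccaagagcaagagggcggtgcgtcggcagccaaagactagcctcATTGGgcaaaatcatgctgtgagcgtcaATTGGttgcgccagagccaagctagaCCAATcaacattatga

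Mitotic genes were positive in 40 of 43 and negative in none (93%, median 0.33). The median gap was 0.46 without TW and 0.77 with it, Soft-TW being apart and low in 27 genes and Stiff-TW apart and high in 16. Mki67, the proliferation antigen (gene 17345, chromosome 7, 135689784 to 135716450), was at 49.6, 46 and 45.7 TPM in Soft, 40.2, 40.7 and 39.9 in Soft-TW, 51.1, 51.8 and 51.7 in Stiff, and 65.3, 66.3 and 66.2 in Stiff-TW. Soft-TW was the lowest and Stiff-TW the highest group, without overlap (0.51 ± 0.0333, adjusted p = 5.16e-26). The anillin gene Anln of the cleavage furrow had 0.55 ± 0.0315, the centromeric histone gene Cenpa 0.56 ± 0.0535 and Top2a 0.37 ± 0.0303, while Tpx2 (0.034), Ndc80 and Spc25 were not called. Genes of S phase and DNA replication were less uniform, with 14 of 40 positive and 5 negative (median 0.10). Uhrf1, which keeps DNA methylation at replication forks, had 0.71 ± 0.0548, Tk1 0.60 ± 0.0739 and Rrm2 0.44 ± 0.0464, whereas Dut (-0.49), Prim1 (-0.27), Tyms (-0.21) and Gins4 (-0.18) were among the negative.

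**Figure D3:**
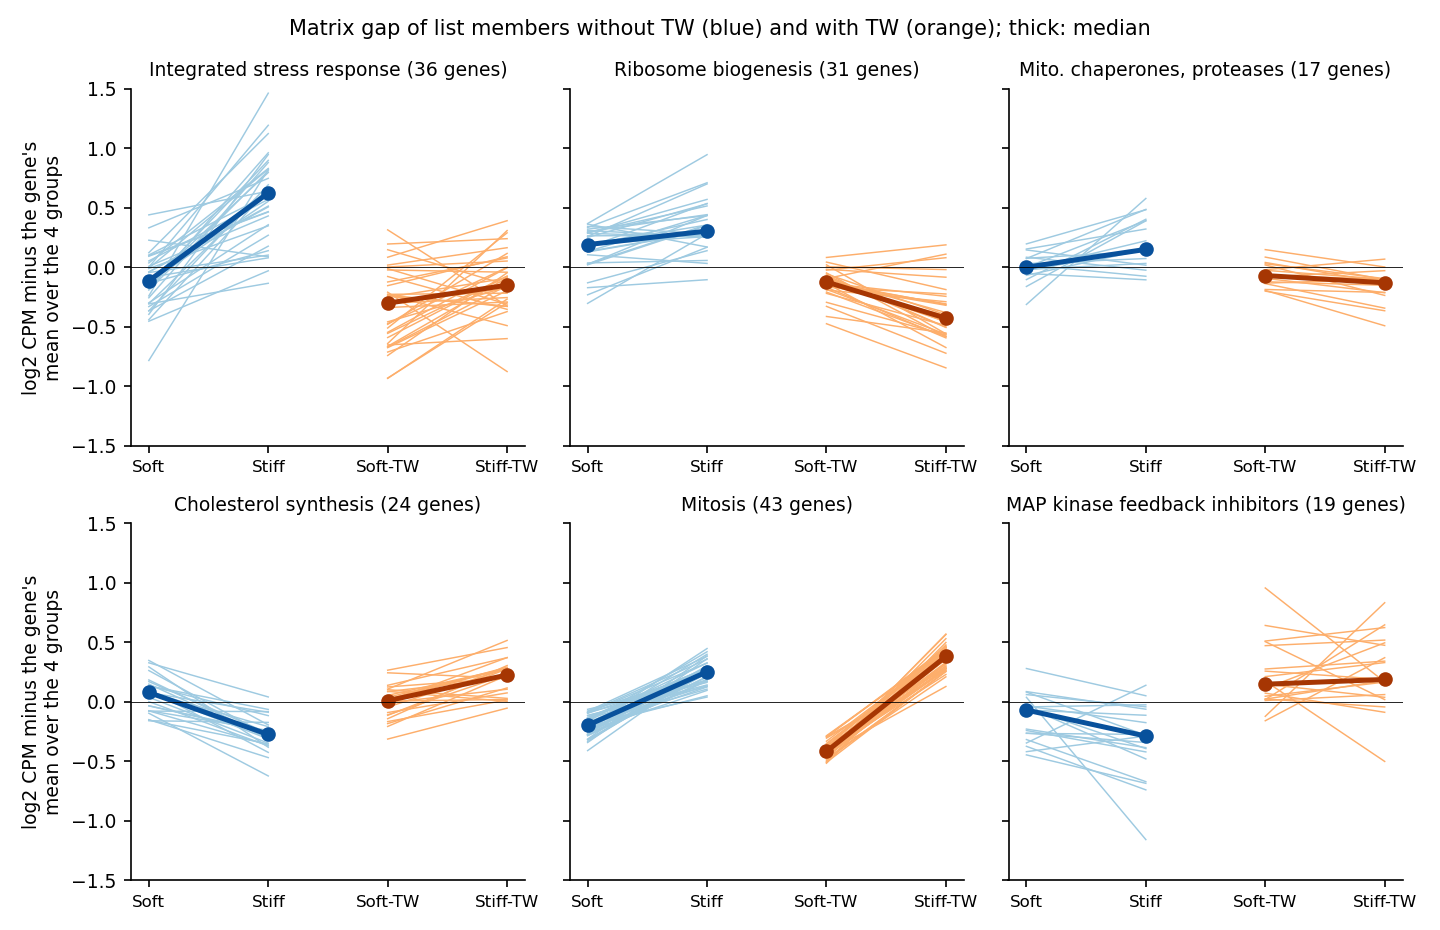
Mean log2 CPM of each member of 6 gene groups relative to its own mean over the 4 groups of libraries (vertical), for Soft and Stiff joined in blue and Soft-TW and Stiff-TW joined in orange; thick lines are medians. The blue slope is steeper than the orange one for the integrated stress response, the slopes have opposite directions for ribosome biogenesis and cholesterol synthesis, and the orange slope is the steeper for mitosis.

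Immediate early genes, induced within minutes of growth factor or mechanical signals, were positive in 16 of 31 and negative in 3 (51.6% and 9.68%, median 0.23). Besides Fosb, the positive genes included Klf2 (1.04), Nr4a2 (1.00), Zfp36 (0.81) and Jun (0.76 ± 0.0463). Jun was at 43.1, 45.6 and 44.6 TPM in Soft, 65.2, 64.9 and 66.5 in Soft-TW, 41.9, 41.2 and 42.5 in Stiff, and 107, 111 and 111 in Stiff-TW, so the matrices were 0.001 apart on the log2 scale without TW and 0.76 with it. Fos, the partner best known beside Jun, was not called (-0.16), and Atf3 (-0.92), Myc (-0.38) and Ier3 (-0.31 ± 0.0292) were negative. Phosphatases and other inhibitors that MAP kinases induce against themselves were positive in 9 of 19 and negative in none (median 0.22). Dusp6, a phosphatase specific for ERK, was at 77.5, 73 and 74.2 TPM in Soft, 85.4, 80.8 and 83.1 in Soft-TW, 64, 60.8 and 62.2 in Stiff, and 126, 126 and 129 in Stiff-TW (0.81 ± 0.0419, adjusted p = 1.32e-33). Stiff was below Soft without TW and above it with TW in every library. Dusp1 (0.82 ± 0.0542), Etv4 (0.52 ± 0.0724) and Errfi1 (0.40 ± 0.0536) shared the sign, and Etv5, Spred1 and Dusp4 were not called. The AP-1 letters TGANTCA, searched on both strands, were in 27 of 263 windows of positive genes of at least 1.5-fold (10.3%). They were in 18 of 272 of the negative ones (6.62%) and in 5.49% of all windows. With called genes of any size the AP-1 shares were 6.38% (positive) and 5.01% (negative).

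Hypoxia and HIF targets split between the signs, 12 of 32 positive and 8 negative (median 0.11). Ero1a, an oxidase of the endoplasmic reticulum (gene 50527, chromosome 14, 45283087 to 45318572), was at 240, 231 and 224 TPM in Soft, 1652, 1632 and 1631 in Soft-TW, 325, 327 and 330 in Stiff, and 1458, 1458 and 1475 in Stiff-TW. Stiff lay above Soft without TW and below it with TW (-0.73 ± 0.0257, adjusted p = 1.03e-47). The angiogenic factor gene Vegfa (-0.52 ± 0.0323) and the glucose transporter gene Slc2a1 (-0.45 ± 0.0338) were negative as well. Car9, a carbonic anhydrase of the cell surface, went the other way, at 36.3, 37.7 and 37.8 TPM in Soft, 161, 157 and 156 in Soft-TW, 28.1, 29.3 and 30.5 in Stiff, and 211, 210 and 207 in Stiff-TW (0.70 ± 0.0576, adjusted p = 9.72e-20). The kinase gene Pdk1, which limits pyruvate entry into mitochondria, had 0.51 ± 0.0476, the mitophagy receptor gene Bnip3 0.58 ± 0.0433, and Hif1a -0.13. Glycolysis was divided too, with 10 of 22 genes positive and 6 negative (median 0.12). Positive enzymes included Eno1 at 0.44 ± 0.0275, Pgk1 at 0.42 ± 0.0267 and Aldoa at 0.31 ± 0.0253. Negative genes were the aldolase gene Aldoc (-1.78), the hexokinase gene Hk2 (-0.65), the lactate carriers Slc16a1 (-0.54) and Slc16a3 (-0.29), Pfkp (-0.11) and Slc2a1.

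Nuclear genes of the respiratory chain had no common direction, with 10 of 76 positive and 15 negative. These shares, 13.2% and 19.7%, were near the 16.4% and 19.7% of all genes tested. The median of the list was 0.016 and became -0.070 with limma on log2(TPM + 1). The cytochrome c gene Cycs (-0.57 ± 0.0383), Uqcrq of complex III (-0.63 ± 0.067) and Atp5g1 of the ATP synthase rotor (-0.41 ± 0.0548) were the most negative genes, and Atp5k (0.66) and Atp5a1 of the catalytic head (0.24 ± 0.0284) were positive. TCA cycle genes (7 positive and 8 negative of 33), fatty acid oxidation genes (3 and 4 of 24) and genes of mitochondrial dynamics and mitophagy (5 and 4 of 22) had medians of -0.043, -0.045 and -0.011, all 3 of which changed sign with limma on log2(TPM + 1). Their positive shares were 21.2%, 12.5% and 22.7% and their negative shares 24.2%, 16.7% and 18.2%, also near those of all genes. Of 26 genes of the unfolded protein response, 14 were positive and 5 negative (median 0.14), the positive ones including Calr (0.42 ± 0.0263), Hsp90b1 (0.29 ± 0.0251) and Sdf2l1 (0.71), and the negative ones including the sensor genes Atf6 (-0.53 ± 0.0407) and Ern1 (-0.39 ± 0.0423). The remaining sensor gene, Eif2ak3, was positive at 0.41. Cytosolic heat shock chaperones were negative in 10 of 19 and positive in 5, with Hsph1 at -0.59 ± 0.0373.

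Extracellular matrix genes were positive in 27 of 53 and negative in 7 (50.9% and 13.2%, median 0.22). Basement membrane collagen Col4a2 had 0.61 ± 0.0482, the matricellular genes Thbs2 and Sparc 0.59 ± 0.0317 and 0.45 ± 0.0357 and the stromelysin gene Mmp3 1.01, whereas the fibronectin gene Fn1 (-0.37), the collagenase gene Mmp13 (-0.74) and Fbn1 (-0.42) were negative. Genes of mesenchymal transition and TGF-beta were positive in 16 of 32 and negative in 4 (median 0.17), with Id1 (0.63 ± 0.0477), Id3 (0.59 ± 0.0426) and Snai1 (0.50) among the positive and the activin gene Inhba (-0.81 ± 0.0688) among the negative. YAP and TAZ targets were positive in 12 of 28 and negative in 2 (median 0.13), led by Myof (0.56 ± 0.0291), while the widely used reporters Ccn1 (0.10) and Ankrd1 (-0.21) were not called. Integrin and focal adhesion genes (9 positive and 6 negative of 33) and contractile genes under SRF (8 and 5 of 29) had medians of 0.066 and 0.067. Their positive shares were 27.3% and 27.6%, beside 16.4% of all genes, and their negative shares, 18.2% and 17.2%, were near the 19.7% of all genes. With limma on log2(TPM + 1) the contractile genes were positive in 15 and negative in 1.

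Genes of stiffness sensing given regardless of their values were mixed. Ddr2, which binds fibrillar collagen and signals as a tyrosine kinase (gene 18214, chromosome 1, 169972307 to 170110836), was at 43.5, 40.6 and 42.2 TPM in Soft, 29.7, 29.7 and 30 in Soft-TW, 81.1, 80.4 and 78.7 in Stiff, and 46, 47.8 and 46.8 in Stiff-TW. The stiff matrix was higher with and without TW and the gap narrowed from 1.02 to 0.66 (-0.36 ± 0.0357, adjusted p = 2.07e-15). The focal adhesion kinase gene Ptk2 had -0.033 ± 0.0385 (adjusted p = 0.537) with all 12 libraries between 57.2 and 65.2 TPM. The GTPase genes Rhoa (0.035 ± 0.0291, adjusted p = 0.371) and Rac1 (0.076 ± 0.0294, adjusted p = 0.0323) had values near 0. The call of Rac1 was lost when any of 5 single libraries was left out, and Rhoa was called with limma on log2(TPM + 1), at 0.097. Tiam1, an exchange factor for Rac, was measured from 2 to 27 counts per library. Its means were 0.09, 0.137, 0.4 and 0.0733 TPM in Soft, Soft-TW, Stiff and Stiff-TW (-2.61 ± 0.615, adjusted p = 0.00029). The engulfment gene Elmo1 was not among the genes given regardless of their values. At means of 0.677, 0.69, 2.61 and 0.503 TPM in the same order, it had -2.55 ± 0.31. Tiam1 and Elmo1 were both highest in the Stiff libraries.

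Genes under NF-kB were negative in 13 of 35 and positive in 4 (median -0.18). The neutrophil chemokine gene Cxcl1 was at 71.6, 67.4 and 71.3 TPM in Soft, 77, 84.5 and 76.5 in Soft-TW, 183, 192 and 187 in Stiff, and 97.6, 98.9 and 106 in Stiff-TW, with Stiff above the rest (-1.08 ± 0.0713, adjusted p = 5.62e-26). The prostaglandin synthase gene Ptgs2 (-0.60 ± 0.0282) and Csf1 (-0.35 ± 0.0297) shared the sign, and Cxcl12 and Vcam1 (0.45) had the opposite one. Interferon-stimulated genes were positive in 18 of 47 and negative in 4 (median 0.18). Members of 1 family took opposite signs: Oas3 had 1.38 and Oasl1 -1.23 ± 0.188, Ifit3 1.13 and Ifit1 -1.49 ± 0.239, with Oasl1 and Ifit1 below 6 TPM in every group mean. NRF2 targets and glutathione genes were negative in 27 of 38 and positive in 5 (median -0.23), with Aldh3a1 at -0.54 ± 0.0328, Srxn1 at -0.35 ± 0.0278 and Txnrd1 at -0.31 ± 0.0268, while Nfe2l2, which encodes NRF2, was not called (-0.0067) and Gpx1 was positive (0.56). Targets of p53 were negative in 15 of 23 and positive in none (median -0.19), led by Gadd45a (-0.81 ± 0.0543), with Mdm2 at -0.33 ± 0.0286 and Cdkn1a not called (-0.037).

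**Figure D4:**
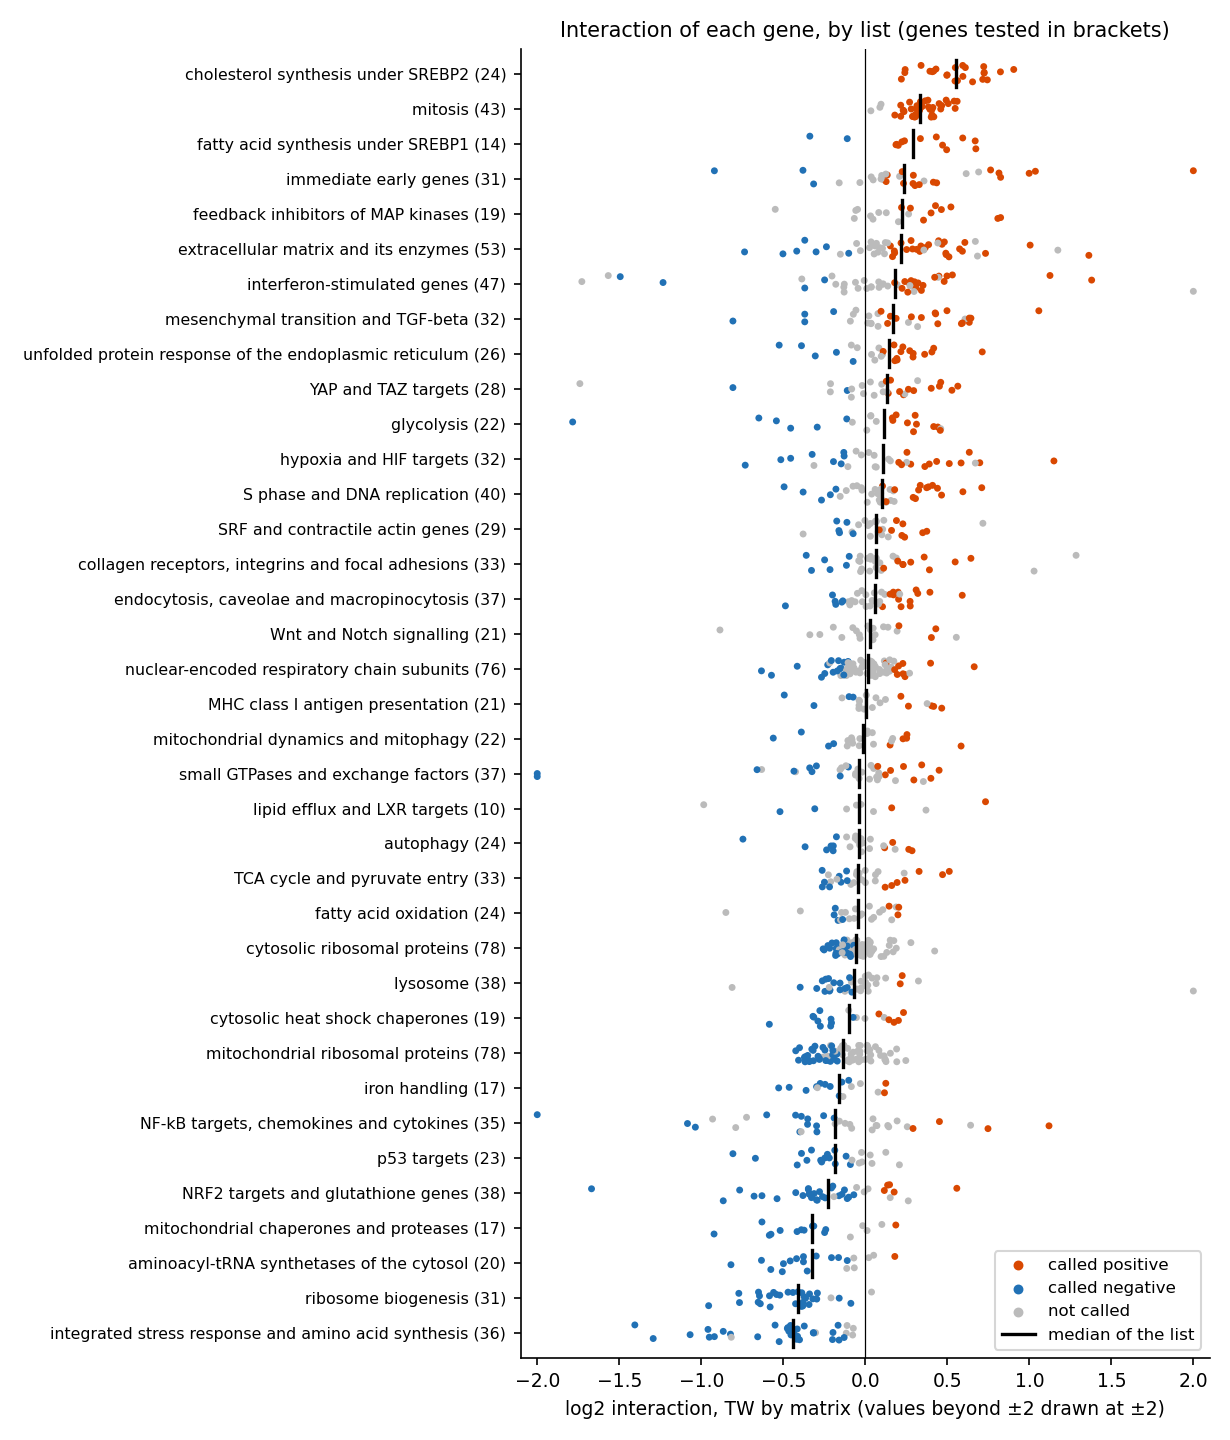
Log2 interaction of every tested member (points) of the 37 pathway lists, ordered by the list median (black bar), with positive calls in orange, negative calls in blue and genes not called in grey; 6 points beyond 2 are drawn at the edge. The integrated stress response and ribosome biogenesis lie at the negative end and cholesterol synthesis and mitosis at the positive end, and the members of these lists lie mostly on 1 side of 0.

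Whether the dependence on the matrix was the same for TW as for mito was tested as a difference that uses no untreated library, the gap between the matrices with TW less the gap with mito. It passed for 3830 of 12245 genes (31.3%), 1808 higher with TW (14.8%) and 2022 lower (16.5%). The interactions of TW and of mito share the Soft and Stiff libraries, so their values are given side by side only, and mito had 2888 called interactions (23.6%), positive in 10.4% of genes tested and negative in 13.1%. Cholesterol synthesis genes were positive in 24 of 24 with TW and negative in 14 with mito, and their difference was positive in 23. For mitosis, 40 of 43 were positive with TW, 1 was positive and 4 were negative with mito, and the difference was positive in 42. For the integrated stress response, 30 of 36 were negative with TW, 14 were positive and 9 negative with mito, and the difference was negative in 31 and positive in 2. Ribosome biogenesis genes were negative in 29 of 31 with TW and in 25 with mito, with a difference that was negative in 20 and positive in none. Immediate early genes were positive in 16 of 31 with TW and in 14 with mito, with a difference positive in 12 and negative in 6, and extracellular matrix genes were positive in 27 of 53 with TW and in 30 with mito, with a difference positive in 14 and negative in 21. Of 76 respiratory chain genes, 10 were positive and 15 negative with TW, 1 was positive and 22 were negative with mito, and the difference was positive in 27 and negative in 3. Ddr2 was negative with TW (-0.36) and positive with mito (0.33), a difference of -0.69 ± 0.0368 (adjusted p = 2.83e-32), and for Car9 the interaction was 0.70 with TW and 1.24 with mito, a difference of -0.54 ± 0.0494. Fosb had 2.24 with TW and 0.44 with mito, a difference of 1.79 ± 0.0616.

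**Figure D5:**
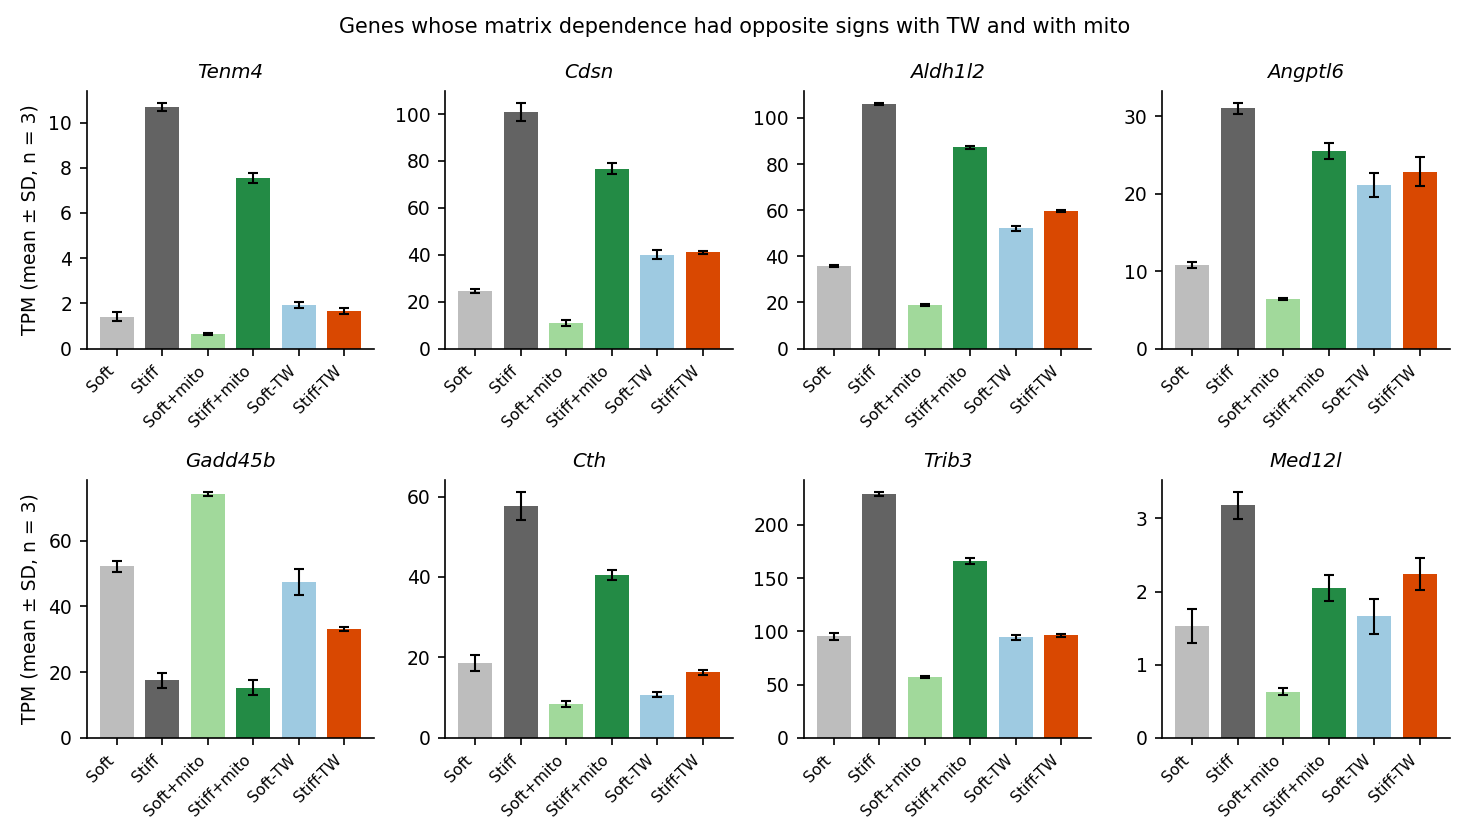
Mean level in TPM (bars from 0, whiskers SD, n = 3 libraries) of 8 genes in Soft and Stiff (grey), Soft+mito and Stiff+mito (green) and Soft-TW (blue) and Stiff-TW (orange), for genes whose interactions were called with opposite signs. Trib3 was at 95.4 TPM on the soft and 229 on the stiff matrix with no addition, 57.5 and 166 with mito, and 94.2 and 96.1 with TW, and in Gadd45b the soft bar is the higher in all 3 pairs.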

How the data were processed

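RNA of 18 libraries was sequenced as strand-specific, poly(A)-selected paired ends, per the labels' protocols. The authors deposited a gene table, used here, with an estimated count and a TPM per library, and a transcript table, which was not used, on the build mm10 per the submitters' processing notes. The sources used here name no aligner, quantifier or annotation. The 44 columns of averages were not used. Of the deposited estimated counts of the 18 libraries, 10.9% were not whole, and all were rounded.

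Of 18397 genes, 12245 passed edgeR's filterByExpr. A model of 6 group means over 18 libraries was fitted with edgeR 4.0.16 (TMM, robust quasi-likelihood, R 4.3.3), with Benjamini-Hochberg adjustment over all genes. The standard error is the absolute log2 value divided by the root of F. Libraries of a group differed by a chi-square of 1.19 to 2.06 per degree of freedom, so none was counted as a repeat deposit. That is little more than counting noise, and the common coefficient of variation beyond counting was 0.0175. Whether the libraries of a group are technical repeats was not tested, and p-values rest on this small spread. On simulated counts (12171 genes), 72% of interactions of 1.25-fold, 86% of 1.5-fold, 98% of 2-fold and 100% of 3-fold were called, with 0.192% of unchanged genes. The simulated interactions were placed only in genes above a minimum mean count, so these shares do not cover genes at few counts.

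The genes named are the 15 of largest interaction in each direction (adjusted p under 0.05, mean of 5 CPM, 1 sign over 81 choices of libraries), 4 per pathway list by smallest p, and Ddr2, Ptk2, Tiam1, Rhoa and Rac1. Further members were named after their values were seen. The lists were chosen with earlier results of these data known. Alternatives were other scalings, filters, DESeq2 1.42.0, limma 3.58.1 on log2(TPM + 1), a minimum change of 0.32 on the log2 scale, the 12 libraries alone, a replicate block and leaving out each library. The sign of each call was also taken on the linear CPM scale. Some members of the lists are counted but not reported here by name.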

Additional observations from a re-analysis of the deposited data

Results flagged for a closer look

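The difference between the TW and mito interactions, tested with no untreated library, passed for 3830 genes (edgeR quasi-likelihood test). In 214 genes of at least 5 CPM the interactions with TW and with mito were called with opposite signs and their difference was called too. Predicted genes were left out of the 214, and 10169 genes in all, predicted ones included, had at least 5 CPM. The 8 with the largest differences are given. The differences, TW minus mito on the log2 scale, were -3.67 ± 0.111 for Tenm4, -2.76 ± 0.0661 for Cdsn, -1.96 ± 0.037 for Aldh1l2 and -1.86 ± 0.116 for Angptl6. They were 1.80 ± 0.1 for Gadd45b, a stress-induced inhibitor of growth, -1.63 ± 0.118 for Cth, -1.47 ± 0.0446 for Trib3 and -1.25 ± 0.15 for Med12l. Tenm4 had an interaction of -3.20 with TW and 0.47 with mito, Cdsn -2.07 and 0.69, and Trib3 -1.29 and 0.18. Both interactions share the Soft and Stiff libraries.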

How the results depend on the processing

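The count of 4421 genes was 4412 with DESeq2-type (RLE) scaling, 4419 with library totals, 3452 with DESeq2, 4234 without a filter, 4283 with a minimum of 5 CPM, 4545 with the 12 libraries alone and 4146 with limma on log2(TPM + 1). Testing for changes above 0.32 on the log2 scale left 550 genes, 254 positive and 296 negative. With limma on log2(TPM + 1) the negative genes were 1567 in place of 2417 and the median interaction of all genes was 0.0444 in place of -0.0065. Leaving out 1 library gave 4084 to 4266 genes, 1834 to 1985 positive and 2137 to 2393 negative. With the replicate number as a block 4502 genes passed. Libraries of the same number did not visibly deviate together (correlations from -0.114 to 0.101, beside -0.143 to 0.158 for different numbers). Counting noise can hide a small shared deviation, so this check cannot tell whether the numbers pair the libraries. The difference between TW and mito passed for 2831 genes with DESeq2 and for 3929 with the block. Of 184 genes named by rule or after their values were seen, 107 kept their call in all refits on the log2 scale. None reversed there, and the minimum change of 0.32 accounted for 73 lost calls. On the linear CPM scale 4392 of the 4421 calls kept their sign, a check that is not part of the 107. Genes at few counts, such as Tiam1, are limited by depth.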

Other observations

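Histone genes, a list chosen after the values were seen, were positive in 4 of 23 and negative in none, with a median of 0.29, and their share of positive calls was near the 16.4% of all genes tested. Iron handling genes were negative in 10 of 17 and positive in 2 (median -0.16), and lysosomal genes were negative in 15 of 38 and positive in 2 (median -0.067). Autophagy genes were negative in 7 of 24 (29.2%) and positive in 4 (16.7%), with a median of -0.041 that became 0.019 with limma on log2(TPM + 1). Sqstm1, a cargo receptor of autophagy, was at 1442, 1412 and 1433 TPM in Soft, 1061, 1057 and 1046 in Soft-TW, 1710, 1691 and 1743 in Stiff, and 784, 772 and 792 in Stiff-TW. Stiff was its highest and Stiff-TW its lowest group (-0.75). Genes of Wnt and Notch signalling were positive in 3 of 21 and negative in none (median 0.030), and genes of class I antigen presentation were positive in 5 of 21 and negative in 4 (median 0.0060), shares near or below those of all genes tested, 16.4% positive and 19.7% negative, apart from the positive share of class I genes, 23.8%.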
